A study of Mus musculus with 10 samples.

Results

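Axon guidance genes in CA3 neurons were described across 4 groups of male C57BL/6 mice. The genes are those of the ephrins and Eph receptors, the Slits and Robos, the netrins with their Unc5 and Dcc receptors, the netrin-Gs, and the Slitrks. They were chosen by gene symbol, and 46 of the 20196 rows of the table carry such a symbol. A mean over the 4 groups of at least 3 was asked for, which left 42 genes out of the 14986 that reach this mean. The 4 genes below it were Epha1, Epha2, Robo4 and Slitrk6, with means of 2.27, 0.87, 2.55 and 2.52. Just above it were Efna4 and Ntn4, with 3.62 and 3.71. Of the 42 genes, 17 encode ligands, 20 encode receptors and 5 encode Slitrks, which are counted apart because they are synaptic adhesion proteins that do not bind Robos.

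The groups were ELS mice exposed to acute stress (ELS + AS), unstressed ELS mice, controls exposed to AS, and unstressed controls. ELS consisted of limited nesting material on a wire grid from postnatal day 2 to postnatal day 12. AS was a forced swim of 6 min at 25°C, with 1 h of recovery before the hippocampi were taken. The mice were 70 to 90 days old. RNA was obtained by translating ribosome affinity purification (TRAP), which pulls down the mRNA on tagged ribosomes. By the methods, all mice of the sequencing experiment carried the Gprin3 BacTRAP transgene, in which Gprin3 regulatory sequence drives the ribosome tag, whereas the sample records give a wild type genotype. RNA of 5 to 6 mice was pooled for each library. The records list 3 libraries for ELS + AS, 3 for unstressed ELS mice, 2 for controls exposed to AS and 2 for unstressed controls, although the protocol states 3 per group.

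The authors deposited 1 value per gene and group, on the log2 scale of the regularized logarithm (rlog), which scales counts for library size and shrinks differences of genes with few reads. There were therefore no replicates, SDs or tests, and no difference below can be set against the spread between libraries. A level is given as the rlog value, and a difference is the rlog value of one group minus that of another. A size of 0.25, about 1.19-fold, was used for counting, and the counts of guidance genes are read against the share of all 14986 genes past the same size, given for each comparison. Fewer tagged cells of a type and less ribosome-bound RNA per cell cannot be told apart in such pooled RNA. Of the markers of CA3 pyramidal cells, 8 of 8 were detected, and their summed level on the log2 scale was 13.82 in ELS + AS, 13.94 in ELS, 13.92 in AS and 14.10 in unstressed controls. Markers of other cells were also abundant, with summed levels between 14.72 and 15.23 for 12 astrocyte genes and between 15.36 and 15.84 for 12 oligodendrocyte genes. The driver gene Gprin3 itself stood at 6.73 in ELS + AS, 6.70 in ELS, 6.92 in AS and 7.47 in unstressed controls.

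Guidance molecules steer growing axons, and in the adult brain many of them act at synapses. Ephrins are tethered to the cell surface, A-type through a lipid anchor and B-type through a transmembrane segment, and they bind Eph receptor tyrosine kinases on a neighboring cell, so that signals run in both directions. Slits are secreted and repel axons through Robo receptors, whereas netrins attract through Dcc and repel through Unc5 receptors. Netrin-Gs are anchored relatives that bind NGL proteins across the synapse, and Slitrks bind receptor tyrosine phosphatases of presynaptic terminals. In the hippocampus, Epha4 and EphB receptors are known for shaping dendritic spines on pyramidal cells.

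Most guidance genes stood below unstressed controls after either stress. In controls exposed to AS, 35 of 42 genes were below unstressed controls, against 51.7% of all genes, and the median difference was −0.21, against −0.01 for all genes. In unstressed ELS mice, 35 of 42 were again below, against 51.5% of all genes, with a median of −0.27 and −0.01 for all genes. Differences over 0.25 were found for 16 lower genes after AS, or 38.1%, where 12.3% of all genes were as low, and for 22 lower genes in ELS mice, or 52.4%, where 11.9% were. At a size of 0.5 there were 4 lower genes after AS and 5 in ELS mice, against 2.08% and 1.92% of all genes, and 0 higher ones, against 1.56% and 1.30%. Only Efna5 was higher by over 0.25, in each of these comparisons, against 11.4% and 11.7% of all genes. The same unstressed controls enter both comparisons, so the 2 sets of counts are not independent of each other. Markers of CA3 pyramidal cells were below unstressed controls for 8 of 8 genes in each comparison, with medians of −0.22 after AS and −0.21 in ELS mice. Dentate granule markers were below for 9 of 9 genes after AS and 8 of 9 in ELS mice, with medians of −0.32 and −0.40, and microglial markers were above for 12 of 12 and 11 of 12 genes, with medians of 0.27 and 0.40. The other marker lists had genes on both sides of 0 in each comparison. Their medians after AS and in ELS mice were 0.21 and 0.01 for interneurons, −0.08 and −0.11 for CA1 cells, and −0.04 and 0.08 for astrocytes. Oligodendrocyte markers had −0.06 and 0.08, endothelial ones 0.07 and 0.04, and mural ones 0.04 and 0.18. The part of all these cells in the lower guidance genes was not tested.

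**Figure D1:**
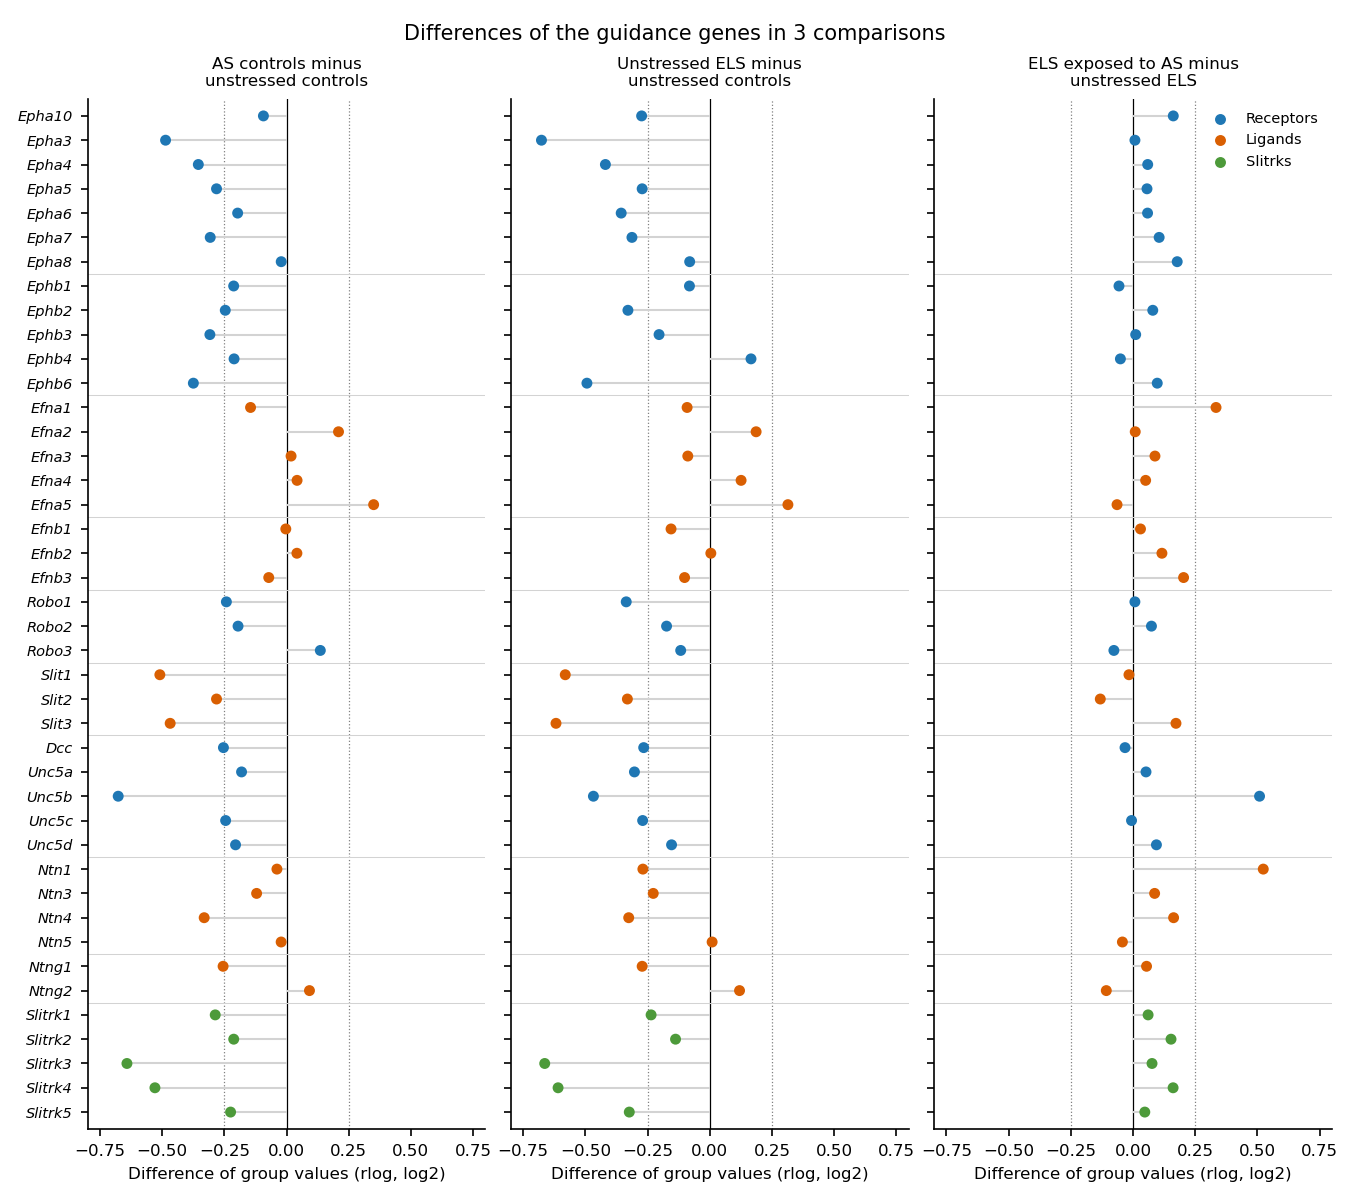
Difference of group values (rlog, log2) for each of the 42 guidance genes, by family, in 3 comparisons, with receptors in blue, ligands in orange and Slitrks in green; dotted lines mark 0.25 in either direction. Points lie left of 0 for 35 of 42 genes in the first panel and in the second, while 32 of 42 lie right of 0 in the third.

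Receptors stood lower than ligands as a group, though not in every family. After AS in controls, 19 of 20 receptors were below unstressed controls, as were 11 of 17 ligands, against 51.7% of all genes. The medians were −0.24 for receptors and −0.04 for ligands. In unstressed ELS mice the counts were the same, 19 of 20 receptors and 11 of 17 ligands, against 51.5% of all genes, with medians of −0.27 and −0.10. Lower by over 0.25 were 8 receptors and 5 ligands after AS, and 13 receptors and 6 ligands in ELS mice, where 12.3% and 11.9% of all genes were. The Slits accounted for 3 of these ligands in each comparison. By ligand family, the medians after AS and in ELS mice were 0.03 and −0.04 for ephrins and −0.47 and −0.58 for Slits. Netrins and netrin-Gs together had −0.08 and −0.25. The Robos, which are the receptors of Slits, had −0.19 and −0.17, so the Slits lay lower than their receptors. Receptor genes also have longer transcripts, with a median of 5766 bases for the longest annotated one, against 3646 bases for ligands. When the median difference of genes of like length was subtracted, the medians after AS were −0.14 for receptors and −0.06 for ligands, and in ELS mice −0.16 and −0.12. The counts lower by over 0.25 then came to 4 receptors and 3 ligands after AS, and to 5 receptors and 3 ligands in ELS mice, where 9.83% and 8.49% of all genes were. Below 0 were then 18 of 20 receptors and 10 of 17 ligands after AS, and 17 of 20 and 13 of 17 in ELS mice. In each comparison 7335 of 14694 genes were below 0 on this scale.

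**Figure D2:**
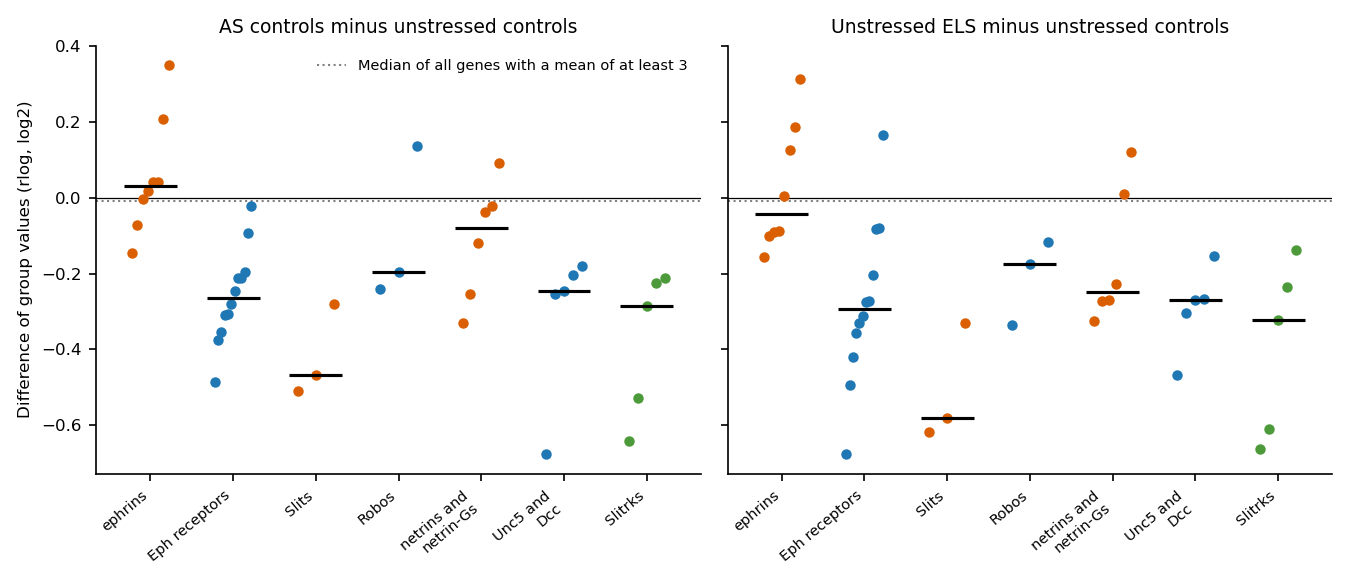
Difference of group values (rlog, log2) by family, with 1 point per gene, a bar at the family's median and a dotted line at the median of all genes; receptors are blue, ligands orange and Slitrks green. The ephrins lie around 0, with medians of 0.03 and −0.04, while the Slits have medians of −0.47 and −0.58.

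Eph receptors stood lower than their ephrins, and both are among the receptors and ligands already counted above. Below unstressed controls were 12 of 12 Eph receptors after AS and 11 of 12 in ELS mice, where 51.7% and 51.5% of all genes were. Their medians were −0.26 and −0.29. Of the 8 ephrins, 3 and 4 were below unstressed controls, with medians of 0.03 and −0.04. Lower by over 0.25 were 6 and 8 Eph receptors and 0 ephrins, where 12.3% and 11.9% of all genes were. With the length trend subtracted, the Eph receptors had medians of −0.17 and −0.19, and the ephrins 0.00 and −0.06. Then 3 and 4 Eph receptors and 0 ephrins were lower by over 0.25, where 9.83% and 8.49% of all genes were.

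Sequence upstream of the start site was taken from RefSeq (GRCm38.p6) for the 250 bases before the start, and was found for 36 of the 42 genes with 42 start sites. It is shown for the Eph receptor furthest below unstressed controls, for the only ephrin above them by over 0.25, and for the receptor with the largest gap between its AS difference in ELS mice and that in controls. Capitals mark matches on either strand to the GC box, GGGCGG.
Epha3, chr16:63864176-63864425, minus strand: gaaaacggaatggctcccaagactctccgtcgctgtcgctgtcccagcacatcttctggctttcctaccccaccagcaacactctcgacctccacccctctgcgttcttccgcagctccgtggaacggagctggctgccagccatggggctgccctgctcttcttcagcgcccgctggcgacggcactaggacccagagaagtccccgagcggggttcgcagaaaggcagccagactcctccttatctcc
Efna5, chr17:62881318-62881567, minus strand: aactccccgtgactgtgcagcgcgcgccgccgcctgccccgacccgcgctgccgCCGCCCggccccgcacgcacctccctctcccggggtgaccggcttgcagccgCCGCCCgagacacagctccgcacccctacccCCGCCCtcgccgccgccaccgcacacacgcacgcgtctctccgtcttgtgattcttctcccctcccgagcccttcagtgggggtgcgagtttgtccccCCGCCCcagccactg
Unc5b, chr10:60831582-60831831, minus strand: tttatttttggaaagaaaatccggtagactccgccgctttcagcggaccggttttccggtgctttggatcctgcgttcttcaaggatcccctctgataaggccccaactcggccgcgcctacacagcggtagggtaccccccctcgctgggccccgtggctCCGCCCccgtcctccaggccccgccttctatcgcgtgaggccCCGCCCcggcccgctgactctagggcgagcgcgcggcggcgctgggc
Epha3 held no GC box and 16 CpG dinucleotides in this window, Efna5 held 4 GC boxes and 32 CpG, and Unc5b held 2 GC boxes and 27 CpG. Over all 42 start sites of guidance genes, 64.3% held a GC box, against 55.3% of 14777 start sites of genes with a mean of at least 3, and the median number of CpG was 16.5 against 15. The letters TGACGTCA (the cAMP response element), GCGTGGGCG (an Egr site) and ACANNNTGT (the core of a glucocorticoid response element), searched on both strands, were each in 1 of the 42 windows and in 2.51%, 0.98% and 3.82% of the 14777. None of the 3 sequences shown held any of them.

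Among the EphA receptors, which bind mainly A-type ephrins, Epha3 was furthest below unstressed controls, with differences of −0.49 after AS and −0.68 for ELS. Its level was 6.08 in ELS + AS, 6.08 in ELS, 6.27 in AS and 6.75 in unstressed controls. The 3 stressed groups lay within 0.2 of each other and apart from unstressed controls by at least 0.49. Epha4, a receptor that limits spine growth, had the highest level of the family per kb of transcript. Its level was 11.55 in ELS + AS, 11.50 in ELS, 11.56 in AS and 11.92 in unstressed controls. Its differences were −0.35 after AS and −0.42 in ELS mice. Epha5 had 10.10 in ELS + AS, 10.05 in ELS, 10.04 in AS and 10.32 in unstressed controls. For Epha7 these values were 10.41 in ELS + AS, 10.31 in ELS, 10.31 in AS and 10.62 in unstressed controls. Both were close to equal in AS and ELS and slightly higher in ELS + AS, by 0.06 and 0.11 relative to ELS. Epha6 stood at 8.92 in ELS + AS, 8.86 in ELS, 9.02 in AS and 9.22 in unstressed controls, with differences of −0.20 after AS and −0.36 in ELS mice. Epha10, which lacks kinase activity, had 8.10 in ELS + AS, 7.94 in ELS, 8.12 in AS and 8.22 in unstressed controls, and was past 0.25 in ELS mice only, with −0.27, against −0.09 after AS. Epha8, with a mean rlog near 4, differed by −0.02 and −0.08.

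The EphB receptors bind B-type ephrins, and Ephb6 was both the highest of them per kb of transcript and the furthest from unstressed controls. Its level was 9.19 in ELS + AS, 9.09 in ELS, 9.21 in AS and 9.59 in unstressed controls, with differences of −0.37 after AS and −0.49 in ELS mice. Like Epha10, its protein has no kinase activity. Ephb2, which associates with NMDA receptors at synapses, had 7.98 in ELS + AS, 7.90 in ELS, 7.99 in AS and 8.23 in unstressed controls. Ephb3 had 7.64 in ELS + AS, 7.63 in ELS, 7.53 in AS and 7.84 in unstressed controls, and here the AS difference of −0.31 was past 0.25 while that in ELS mice, −0.20, was not. Ephb1 differed by −0.21 and −0.08. Ephb4, a receptor best known from veins, was the exception, with 3.92 in ELS + AS, 3.97 in ELS, 3.59 in AS and 3.80 in unstressed controls, below unstressed controls after AS by 0.21 and above them in ELS mice by 0.17. Its values are among the lowest, where the rlog shrinks differences most.

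The A-type ephrins stood on both sides of unstressed controls. Efna5, a ligand of Epha4 and other EphA receptors, had 6.85 in ELS + AS, 6.91 in ELS, 6.95 in AS and 6.60 in unstressed controls. It stood 0.35 above unstressed controls after AS and 0.31 above them in ELS mice, and 0.25 above them in ELS + AS. Efna2 was higher as well, by 0.21 and 0.19. Efna3, which astrocytes express as a partner of neuronal Epha4, stayed near its level in unstressed controls, with 0.02 after AS and −0.09 in ELS mice. Efna4 differed by 0.04 and 0.13, and Efna1 by −0.14 and −0.09. Efna1, Efna3 and Efna4 lie within 66.3 kb of chromosome 3, at 89271733 to 89338028 of mm10 in the GENCODE M21 annotation. Of these neighbors, Efna1 was higher by 0.33 in ELS + AS than in ELS, where Efna3 and Efna4 were higher by 0.09 and 0.05. The level of Efna1 was 5.56 in ELS + AS, 5.23 in ELS, 5.17 in AS and 5.32 in unstressed controls.

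Of the B-type ephrins, Efnb3 had the highest level per kb of transcript among all ligands. It stood at 10.74 in ELS + AS, 10.53 in ELS, 10.56 in AS and 10.64 in unstressed controls, so that ELS + AS was the highest group and ELS the lowest, 0.20 apart. Efnb1 stood at 0.00 and −0.16 relative to unstressed controls. Efnb2, also a marker of arteries, differed by 0.04 and 0.00. No B-type ephrin was past 0.25 in any comparison with unstressed controls. After AS, 2 of 3 B-type ephrins and 5 of 5 EphB receptors were below unstressed controls, where 51.7% of all genes were. Lower by over 0.25 after AS were 0 of 3 B-type ephrins and 2 of 5 EphB receptors, where 12.3% of all genes were. With the length trend subtracted, 1 EphB receptor was as low, where 9.83% of all genes were.

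The Slits had the lowest median of the ligand families, at −0.47 after AS and −0.58 in ELS mice, although Ntn4 stood below Slit2 after AS. Slit1 had 9.46 in ELS + AS, 9.47 in ELS, 9.54 in AS and 10.05 in unstressed controls. Its differences were −0.51 after AS, −0.58 in ELS mice and −0.60 in ELS + AS, all relative to unstressed controls, with the 3 stressed groups within 0.09 of each other. Slit3 had 7.99 in ELS + AS, 7.81 in ELS, 7.96 in AS and 8.43 in unstressed controls, or −0.47 after AS and −0.62 in ELS mice. Slit2 had 8.19 in ELS + AS, 8.32 in ELS, 8.37 in AS and 8.66 in unstressed controls, and in ELS + AS it stood furthest from unstressed controls, at −0.46. Their receptors were nearer to unstressed controls, and Robo1 had 8.83 in ELS + AS, 8.82 in ELS, 8.91 in AS and 9.15 in unstressed controls. Robo2, the highest Robo per kb of transcript, had 9.70 in ELS + AS, 9.62 in ELS, 9.60 in AS and 9.80 in unstressed controls, a difference of −0.19 after AS and −0.17 in ELS mice. Robo3, which in mammals binds Slits poorly, stood 0.14 above unstressed controls after AS and 0.12 below them in ELS mice. All 3 Slits were lower by over 0.25 in both comparisons, whereas of the 3 Robos only Robo1 was, in ELS mice, by 0.34. Of all genes, 12.3% after AS and 11.9% in ELS mice were as low. With the length trend subtracted, 2 of 3 Slits and 0 of 3 Robos were lower by over 0.25 in each comparison, where 9.83% and 8.49% of all genes were. Slit2 then stood at −0.16 and −0.19.

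**Figure D3:**
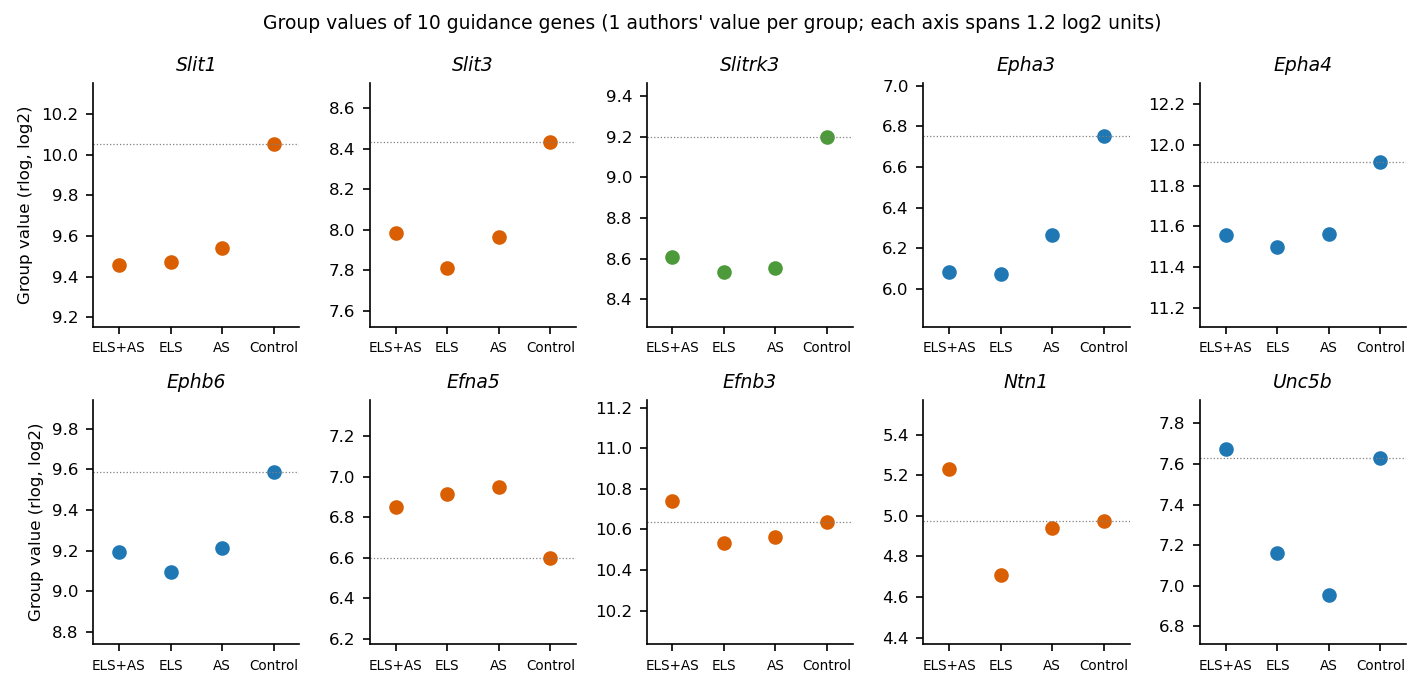
Group values (rlog, log2; 1 authors' value per group) of 10 guidance genes in ELS mice exposed to AS (ELS+AS), unstressed ELS mice, controls exposed to AS and unstressed controls; the dotted line is the level of unstressed controls, and colors are as in the other plots. Slit1, Slit3, Slitrk3, Epha3, Epha4 and Ephb6 lie below that line in all 3 stressed groups, Efna5 lies above it, and Unc5b lies on it in ELS+AS only.

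Netrins bind Dcc and Unc5 receptors, and these receptors were below unstressed controls after either stress alone. This held for 5 of 5, both after AS and in ELS mice, where 51.7% and 51.5% of all genes were below. Their medians were −0.25 and −0.27, and 2 and 4 were lower by over 0.25, where 12.3% and 11.9% of all genes were. With the length trend subtracted, the medians were −0.13 and −0.13, and 1 receptor was as low in each comparison, where 9.83% and 8.49% of all genes were. Of the 4 netrins, 4 and 3 were below unstressed controls, with medians of −0.08 and −0.25. Unc5a, the highest of them per kb of transcript, had 10.57 in ELS + AS, 10.52 in ELS, 10.64 in AS and 10.82 in unstressed controls. Dcc had 8.13 in ELS + AS, 8.16 in ELS, 8.17 in AS and 8.42 in unstressed controls. For Unc5c the values were 8.81 in ELS + AS, 8.81 in ELS, 8.84 in AS and 9.08 in unstressed controls. In Dcc and Unc5c the 3 stressed groups were within 0.05 of each other. Unc5d differed by −0.20 and −0.15. Among the netrins, Ntn5 had the highest level per kb of transcript, at 5.76, and Ntn3 had 4.62. The rlog of Ntn3 was 6.93 in ELS + AS, 6.84 in ELS, 6.95 in AS and 7.07 in unstressed controls. Ntn4, a netrin of basement membranes, had 3.75 in ELS + AS, 3.59 in ELS, 3.58 in AS and 3.91 in unstressed controls, or −0.33 and −0.33 relative to unstressed controls. Ntn5 lay within 0.05 of unstressed controls in all groups. The netrin-Gs differed from each other in sign. Ntng1 had 8.45 in ELS + AS, 8.40 in ELS, 8.41 in AS and 8.67 in unstressed controls and Ntng2 had 9.03 in ELS + AS, 9.14 in ELS, 9.11 in AS and 9.02 in unstressed controls. Ntng1 was thus lower by 0.25 and 0.27, and Ntng2 higher by 0.09 and 0.12.

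Unc5b, the Unc5 receptor that also marks growing vessels, had the largest difference of all members after AS in controls. Its level was 7.67 in ELS + AS, 7.16 in ELS, 6.95 in AS and 7.63 in unstressed controls. The AS difference was 0.51 in ELS mice, against −0.68 in controls, so that ELS + AS stood 0.04 from unstressed controls. Ntn1, the founding netrin, had 5.23 in ELS + AS, 4.71 in ELS, 4.94 in AS and 4.98 in unstressed controls. It differed by 0.52 after AS in ELS mice and by −0.04 after AS in controls.

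All 5 Slitrks with a mean of at least 3 were below unstressed controls after AS and in ELS mice, where 51.7% and 51.5% of all genes were. Their medians were −0.29 and −0.32, and −0.20 and −0.24 with the length trend subtracted. Only Slitrk3 and Slitrk4 were then lower by over 0.25, in each comparison, where 9.83% and 8.49% of all genes were. Slitrk3, which organizes inhibitory synapses, had 8.61 in ELS + AS, 8.53 in ELS, 8.55 in AS and 9.20 in unstressed controls. Its differences were −0.64 after AS and −0.66 in ELS mice. Slitrk4 had 6.62 in ELS + AS, 6.46 in ELS, 6.54 in AS and 7.07 in unstressed controls, with −0.53 and −0.61. Slitrk5, the highest of the family per kb of transcript, had 9.56 in ELS + AS, 9.51 in ELS, 9.61 in AS and 9.83 in unstressed controls. Slitrk1 had 9.51 in ELS + AS, 9.45 in ELS, 9.39 in AS and 9.68 in unstressed controls, and Slitrk2 differed by −0.21 and −0.14. In each Slitrk the ELS + AS value lay above that of unstressed ELS mice, by between 0.05 and 0.16, where 50.8% of all genes were above. Of the 5 differences, 3 were within 0.1, where 64.4% of all genes were.

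In ELS mice most guidance genes differed little between AS and no AS. Between ELS + AS and unstressed ELS mice, 28 of 42 genes differed by at most 0.1, or 66.7%, close to the 64.4% of all genes. Only Ntn1, Unc5b and Efna1 were higher by over 0.25, with 5.11% of all genes as high, and none was lower by that much, with 1.96% of all genes as low. Still, 32 of 42 genes were above 0, against 50.8% of all genes, and the median was 0.06, against 0.00 for all genes. The median was 0.06 for receptors and 0.05 for ligands. Astrocyte markers were above 0 here for 12 of 12 genes and oligodendrocyte markers for 12 of 12, with medians of 0.42 and 0.40. Neuronal and microglial markers were mostly above 0 as well, with 9 of 9 interneuron genes (median 0.28), 7 of 7 CA1 genes (0.17), 8 of 9 dentate granule genes (0.25) and 11 of 12 microglial genes (0.28), while 7 of 8 CA3 genes were below it, with a median of −0.09. Markers of endothelial cells had a median of −0.09, with 3 of 9 genes above 0. The part of these cells in the higher Ntn1, Unc5b and Efna1 was not tested.

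The AS difference in ELS mice minus that in controls had a median of 0.27 over the 42 genes, against 0.02 over all genes, and was over 0.25 for 24 of them, or 57.1%, where 19.3% of all genes were as high. With the length trend subtracted it was over 0.25 for 13, where 15.3% of all genes were as high. Dentate granule markers were above 0 in this gap for 9 of 9 genes, with a median of 0.69, astrocyte and oligodendrocyte markers for 10 of 12 each, with medians of 0.42 and 0.45, and their part was not tested. The gap was largest for Unc5b, at 1.19, followed by Slitrk3 at 0.72, Slitrk4 at 0.69, Slit3 at 0.64 and Ntn1 at 0.56. For Slitrk3, Slitrk4 and Slit3 it came mainly from the lower values after AS in controls. Efna5 alone was below −0.25, at −0.41, where 16.2% of all genes were as low. Between mice that had all been swum, ELS + AS minus AS had a median of 0.01, with 24 of 42 genes within 0.1, or 57.1%, against 59.2% of all genes. Here Unc5b, Efna1, Ephb4 and Ntn1 were higher by over 0.25, at 0.72, 0.39, 0.33 and 0.29, with 6.89% of all genes as high, and Robo3 was lower, at −0.33, with 2.60% of all genes as low.

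**Figure D4:**
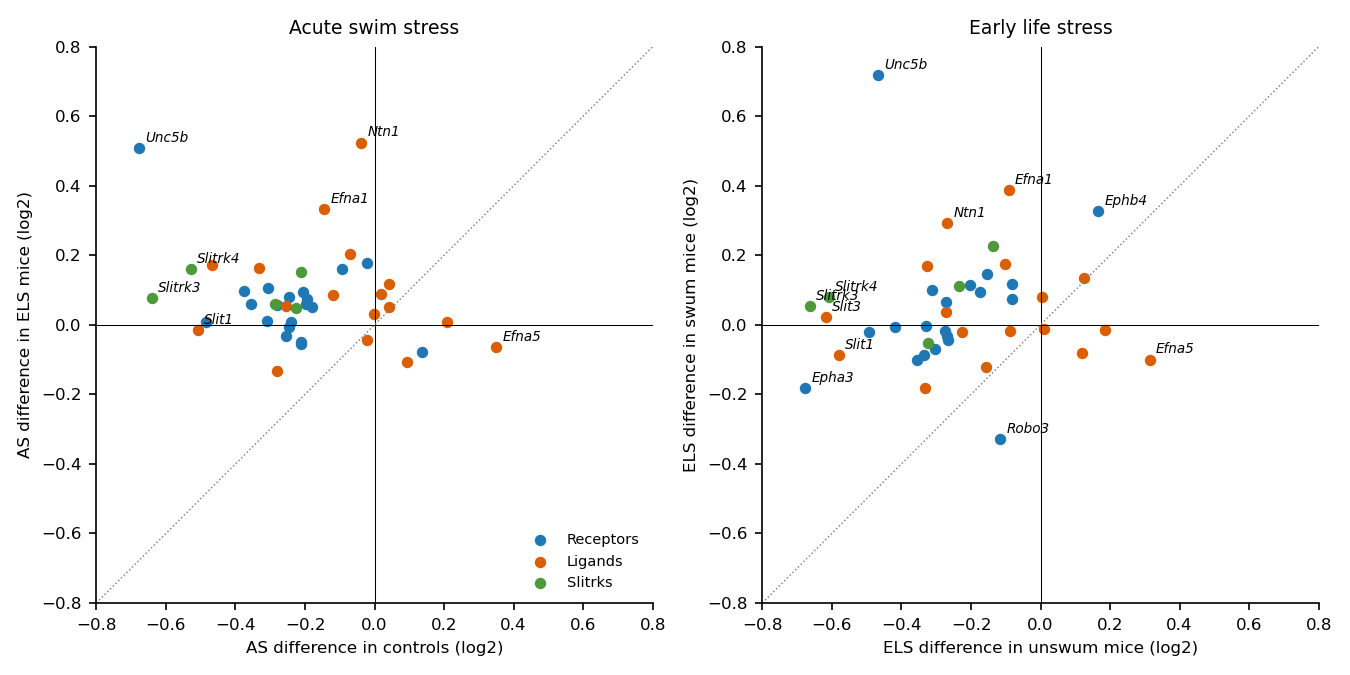
Left, the AS difference in ELS mice (vertical axis) against the AS difference in controls (horizontal axis); right, the ELS difference in swum mice against that in unswum mice, all in rlog (log2) with 1 point per guidance gene, receptors blue, ligands orange, Slitrks green, and a dotted line where both are equal. Most points lie left of 0 but near 0 on the vertical axis, and Unc5b lies at −0.68 and 0.51 on the left.

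Relative to unstressed controls, ELS + AS had 30 of 42 guidance genes below 0, against 50.9% of all genes, with a median of −0.17 and 0.00 for all genes. Lower by over 0.25 were 14 genes, or 33.3%, where 9.47% of all genes were as low, and these comprised 8 receptors, 3 Slits and 3 Slitrks. Higher by over 0.25 was Ntn1 alone, at 0.25, with Efna5 marginally under this size, where 11.3% of all genes were as high. These counts rest on the same unstressed controls as those above. At a size of 0.5 the lower members numbered 3, against 1.55% of all genes, and the higher ones 0, against 2.40%. In this comparison CA3 markers were below 0 for 8 of 8 genes, with a median of −0.31, whereas astrocyte, oligodendrocyte and microglial markers were above 0 for 12 of 12 genes each, with medians of 0.58, 0.44 and 0.66, and interneuron markers for 9 of 9, with a median of 0.33. Their part was not tested. The lowest guidance genes were Epha3 at −0.67, Slit1 at −0.60 and Slitrk3 at −0.59.

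The differences ran with transcript length in this family as in the whole table. Across the 42 genes, Spearman's rho of the difference with the length of the longest annotated transcript was −0.49 after AS in controls and −0.45 in ELS mice, against −0.39 and −0.44 across 14694 genes with a length. Genes share libraries and are not independent replicates, so no p is given. The median length was 4916 bases for the guidance genes and 3396 bases for all genes. With the median difference of genes of like length subtracted, 9 guidance genes were lower by over 0.25 after AS, where 9.83% of all genes were, and 10 in ELS mice, where 8.49% were. The medians became −0.13 and −0.14. In ELS + AS against unstressed controls, 9 were lower and 2 higher, where 7.42% and 10.8% of all genes were. Slitrk3 then stood at −0.58 and −0.58, Unc5b at −0.59 and −0.36, Slit1 at −0.42 and −0.46, and Epha3 at −0.39 and −0.56. Efna5 stood at 0.40 and 0.37, further above 0 than before.

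**Figure D5:**
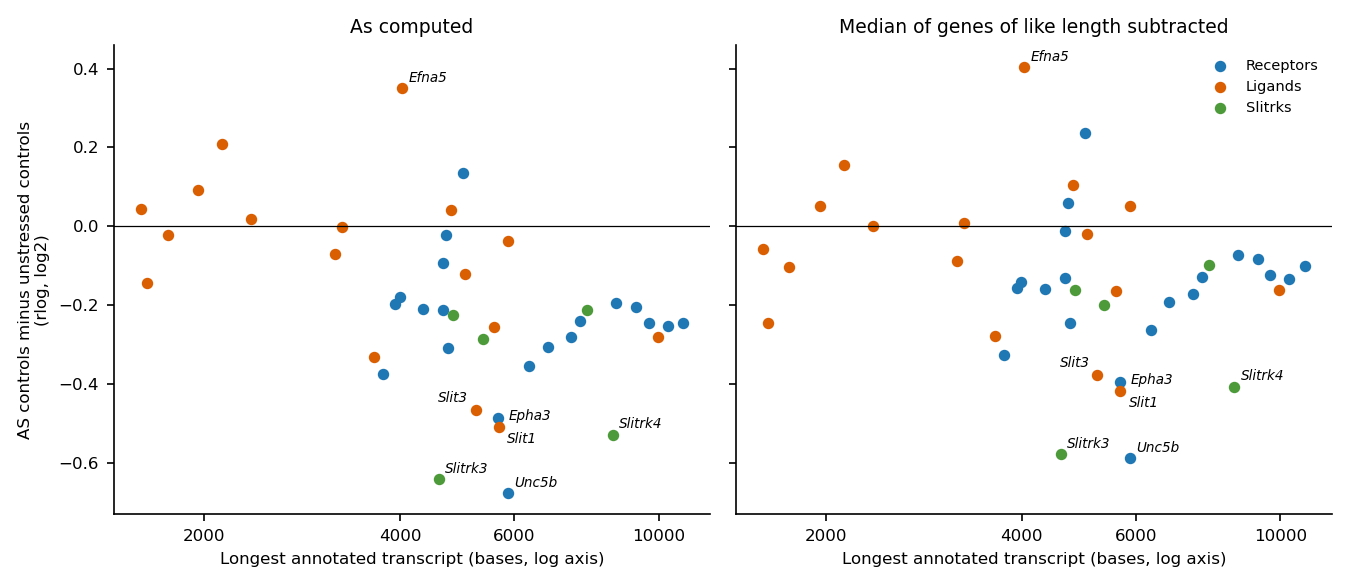
AS difference in controls (rlog, log2) against the longest annotated transcript (bases, log axis) for each guidance gene, as computed and after the median of genes of like length was subtracted. Long genes lie lower on the left, and Unc5b and Slitrk3 remain the lowest on the right, at −0.59 and −0.58.

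For a comparison of levels between genes the rlog was set per length, as the mean rlog minus the log2 of the longest transcript in kb. On this scale Epha4 and Efnb3 were the highest, at 8.97 and 8.95, followed by Unc5a at 8.64, Ntng2 at 8.11 and Efna3 at 8.07. The lowest of the 42 were Ephb4 at 1.70, Ntn4 at 1.84 and Epha8 at 1.93. The highest Eph receptor and the highest ephrin lay within 0.02 of each other, although the transcript used for each gene need not be the one translated here.

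The partners and effectors of guidance receptors were described from a list of 89 genes, all with a mean of at least 3. After AS, 66 were below unstressed controls, where 51.7% of all genes were, with a median of −0.10. Of these, 14 were lower by over 0.25, and 1 gene was higher by that much, where 11.4% of all genes were. In ELS mice 71 were below, where 51.5% of all genes were, with a median of −0.09. Of these, 15 were lower by over 0.25, and 3 genes were higher, where 11.7% of all genes were. The shares lower by over 0.25, 14 and 15 of 89, are nearer to the 12.3% and 11.9% of all genes than those of the guidance genes themselves. The shares below 0, 66 and 71 of 89, lay between those of all genes and that of the guidance genes, with 35 of 42. The shares higher by over 0.25, 1 and 3 of 89, lay under those of all genes, as did that of the guidance genes, with 1 of 42. The length trend was not subtracted for this list. Among the listed partners of netrin-Gs, Unc5 and Slitrks, 4 of 12 were lower by over 0.25 in each comparison, where 12.3% and 11.9% of all genes were. Ptprf, a receptor phosphatase, was at −0.57 after AS and −0.67 in ELS mice. Adgrl3, a latrophilin that binds Flrt and Unc5 proteins, stood at −0.39 and −0.50, and Ptprs at −0.28 and −0.35.

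Of 18 netrin partners, 3 were lower by over 0.25 after AS and 5 in ELS mice, where 12.3% and 11.9% of all genes were. In ELS mice 1 was higher by that much, where 11.7% of all genes were. Rgmb, a ligand of neogenin, stood at −0.45 and −0.57, and Neo1, which encodes neogenin, a relative of Dcc, at −0.36 and −0.35. Rgma, another neogenin ligand, named after its values were seen, was the higher gene, at 0.21 and 0.25. Cyfip1, part of the WAVE complex that drives actin branching, stood at −0.33 and −0.36. Of 16 genes of Slit and Robo signaling, 3 were lower by over 0.25 after AS and 4 in ELS mice, against the same shares of all genes, with Nell1 at −0.48 and −0.52, and Nell2, a secreted ligand of Robo3, at −0.43 and −0.48. Evl, an Ena/VASP protein, was higher by 0.39 and 0.35.

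Of 24 Eph and ephrin effectors, 4 were lower by over 0.25 after AS and 2 in ELS mice, close to the 12.3% and 11.9% of all genes. Sipa1l1, a spine protein that regulates Rap, stood at −0.53 after AS and −0.04 in ELS mice, and Kalrn, which encodes kalirin, an exchange factor for Rac, at −0.30 and −0.43. Vav3 stood at −0.32 and −0.28. None of the 5 ephrin-cleaving proteases was past 0.25 in either comparison, and Adam10 stood at −0.17 and −0.10. Of all genes, 12.3% were lower and 11.4% higher by over 0.25 after AS, and 11.9% and 11.7% in ELS mice. Shared effectors on the cytoskeleton lay close to 0, with medians of 0.01 and 0.00 for 14 genes. Cfl1, which encodes the actin-severing protein cofilin, stood at 0.22 and 0.29.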

How the data were processed

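RNA was purified from tagged ribosomes of the hippocampus, and libraries made with a kit that does not mark strand were sequenced as 100-base single-end reads, 25 to 35 M per sample by the protocol. The processing notes name mm10, Subread, Salmon, DESeq2 and limma, and by the methods the authors took gene counts from Salmon through tximport. The deposited values are log2 (rlog), 1 for each of the 4 groups and each of 20196 rows, from −2.22 to 17.71. How libraries were combined, and whether the limma batch correction named for the heatmaps was applied, is not given in the sources used here, nor are tool versions and the depth of each library. Leaving out 25 symbols turned into dates, genes had to reach a mean of 3 over the groups, and a gene was counted when its difference was over 0.25. Lengths and positions are from GENCODE M21, with a length for 98.1% of these genes, in 50 bins for the length trend. No test was possible without values per library. The members, lists and sizes were chosen with earlier results of these data known. All members could be named, and all 4 values are given for those past 0.25 in a main comparison or highest in their class. The alternatives were a size of 0.5, no minimum mean or one of 6, centring each group on its median, subtracting the length trend, and leaving netrin-Gs out of the ligands. The code was tested on simulated data. Python 3.11.15 was used with numpy 2.4.6, pandas 2.3.3, scipy 1.17.1 and matplotlib 3.10.9.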

Additional observations from a re-analysis of the deposited data

Results flagged for a closer look

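Among the 42 guidance genes, Unc5b stood out because AS went opposite ways in the 2 backgrounds, with 0.51 in ELS mice and −0.68 in controls, a gap of 1.19. Dentate granule markers also went opposite ways, with medians of 0.25 in ELS mice (8 of 9 genes above 0) and −0.32 in controls (9 of 9 below). Oligodendrocyte markers were above 0 for 12 of 12 genes in ELS mice and below it for 6 of 12 in controls. The part of these cells in Unc5b was not tested. Seen by ELS, the values of Unc5b give 0.72 among swum mice and −0.47 among unswum mice. Ntn1 stood out for the ELS difference, with 0.29 among swum mice and −0.27 among unswum mice, a gap of 0.56. With 1 value per group, neither difference was tested.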

How the results depend on the processing

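Subtracting the length trend moved the median of all members to −0.13 after AS in controls, −0.14 in unstressed ELS mice and −0.10 in ELS + AS against unstressed controls, and the median of the gap between AS differences to 0.17, with 13 genes over 0.25 in place of 24, an alternative added for the gap after the data were seen. It moved the receptors' medians to −0.14 and −0.16, and the counts lower by over 0.25 to 9 after AS, 10 in ELS mice and 9 in ELS + AS. Higher members in ELS + AS against unstressed controls numbered 2 with this trend subtracted and 2 with groups centred on their medians. At a size of 0.5, 4 members were lower after AS, 5 in ELS mice and 3 in ELS + AS, and 0 were higher in any of these. With a mean of at least 6, 1 member was higher in ELS + AS than in ELS mice, and 0 were higher than in unstressed controls. All other settings kept medians within 0.05 or a factor of 1.5 and counts within a factor of 1.5. Of 126 differences of single members, 34 moved by over 0.1 with the length trend subtracted and 0 with centring, and no difference over 0.25 turned its sign. No paired analysis was possible because the table holds no values per library, and for the same reason no library could be left out. Genes near a mean of 3 rest on few reads, and their differences are shrunk by the rlog.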

Other observations

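Several guidance genes neighbor each other on a chromosome. Robo3 and Robo4 lie within 31.4 kb of chromosome 9, at 37401897 to 37433246, and Robo3 differed between ELS + AS and AS by −0.33, where Robo4, with a mean under 3, differed by −0.14. Epha8 and Ephb2 lie within 309.3 kb of chromosome 4, with differences in ELS mice of −0.08 and −0.33. Exons of 12 of the 46 genes overlap exons of another annotated gene, and for Ntn5 and Ntng2 the shared stretch is 519 of 2216 and 558 of 3990 exonic bases. Reads in such stretches cannot be assigned by strand with this kit, so the values of Ntn5 and Ntng2 are uncertain to that extent.

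The 4 genes below the mean of 3 include markers of other tissues. Robo4, a Robo of endothelial cells, had 2.45 in ELS + AS, 2.65 in ELS, 2.59 in AS and 2.50 in unstressed controls. Epha2, an Eph receptor of epithelia, had 0.88 in ELS + AS, 1.01 in ELS, 0.80 in AS and 0.78 in unstressed controls.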
